A study of Homo sapiens with 6 samples.

Results

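The genes described here run chromosome segregation in mitosis. They encode the kinetochore, the spindle checkpoint, the kinases and motors of the spindle, cohesin, condensin, the anaphase-promoting complex, and separase with its inhibitor securin. The set held 56 genes in 9 groups, taken by matching the symbols of the sgRNA count table to a fixed list. Of these, 55 had sgRNAs among the 18888 protein-coding symbols of the table, and CENPH had no row and was not analysed here. Their 202 listed sgRNAs were compared with the 2035 sgRNAs of 372 olfactory receptor genes, which breast cells are not expected to need, and with all 100362 sgRNAs of protein-coding symbols.

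The counts came from a pooled knockout screen in MDA-MB-231, a human triple-negative breast cancer line, made to express Cas9 stably by lentivirus. Both groups carried Cas9 and the GeCKO v2 sgRNA library, delivered at a multiplicity of infection of 0.3 and selected in puromycin at 1 µg/mL for 7 days. The DMSO group then received vehicle for 7 days and the erlotinib group received 10 µM erlotinib, which blocks the kinase activity of EGFR, over the same time. Each group had 3 libraries, numbered replicates 1 to 3, in which the sgRNA was read as an amplicon. For its experiments in general the study took a biological replicate to be a fresh culture on another day, but no source used here says so of these 3 libraries. SDs and p-values therefore measure the spread between these libraries, which may be technical. The labels name the line only as ERL and the molecule as RNA, and the study's methods describe genomic DNA.

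At mitosis the kinetochore is built on centromeres that carry the histone variant CENP-A, and its outer part grips microtubules. The spindle checkpoint holds back the anaphase-promoting complex, a ubiquitin ligase, until every kinetochore is attached. The ligase then marks securin for destruction, separase cuts cohesin and the sister chromatids part. Many of these genes are needed by any dividing cell, so a cell that has lost one tends to leave a growing pool, taking its sgRNA with it. A pooled screen reads that as fewer counts or as no count.

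Library totals ran from 1574743 to 4263494 counts in DMSO and from 1773235 to 3332895 in erlotinib. The number of sgRNAs with at least 1 count, called detected here, ran from 36039 to 42149 of 107237 in the DMSO libraries (33.6% to 39.3%). It ran from 1910 to 2224 in the erlotinib libraries (1.78% to 2.07%). An erlotinib library thus held few sgRNAs at high counts, and most genes of every kind were at 0 there. A count of 0 allowed up to 3 counts, between 0.704 and 1.91 CPM (counts per 1000000 counts of the library). Floors cover counting error only, since reads had no molecular identifiers. The Wilson intervals of shares, and the upper limit for a share with no sgRNA detected, treat the listed sgRNAs as independent draws. The list was fixed and sgRNAs share genes, so these ranges are descriptive. They hold neither the error of read counting nor the spread between libraries.

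Of the 202 sgRNAs against mitosis genes, 6 were found in an erlotinib library, 6 were found in all 3 DMSO libraries, and 97 were in no DMSO library. The 20-base targeting sequences at these extremes are printed in DNA letters, 5′ to 3′, with the 12 bases nearest the PAM in capitals, the part in which Cas9 tolerates mismatches least. The first set is shown because these were the only sgRNAs of the list seen under erlotinib.
ANAPC5: gtttctgcGTCACATGATCT
ANAPC2: agcctatcCGCCGCTACCTG
NCAPH: aatctgcgTGTTTGTAAACT
MAD1L1: gcgtgaggTCGACCGCAACC
TTK: cttcaaaaAGCTGTAGAACG
CDC27: ctgttattACCGCTCAGGAA

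The second set holds the sgRNAs seen in every DMSO library, and was chosen after the values were seen. All 6 were at 0 counts in every erlotinib library. The BUB1B sgRNA in DMSO 3 and the MIS12 sgRNA in DMSO 2 had only 1 count.
BUB1B: atgatccgCCCTTGCCTTAA
CDC16: atattactTACAGGATTACT
CDC27: gcagaacgCCTTTATGCAGA
KIF23: ttaccccaACTGGGTCTTTA
MIS12: agtcaacgTCTGTTTGAGTT
PTTG1: caagtttcAACACCACGTTT
CDC16 had the highest share of its sgRNAs detected in DMSO of all 55 genes, and its other 2 listed sgRNAs complete that gene.
CDC16, other sgRNA seen in DMSO 2: catgtcgtTACCTTGCAGCT
CDC16, other sgRNA seen in DMSO 1 and DMSO 3: tttctatcTTTCTCATAAAC

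The third set holds all 13 sgRNAs of the 5 genes without a count in any of the 6 libraries.
ANAPC10, sgRNA 1: agcaagatCTCAGTCAGAGT
ANAPC10, sgRNA 2: atttagtgAACATCCAATTC
ANAPC10, sgRNA 3: cccttggcAGCAACTTGAGT
ANAPC10, sgRNA 4: gacataccCGAATTTCTTGA
ANAPC10, sgRNA 5: tgtatcatGAATGTACGAGT
AURKB, sgRNA 1: acccatacTGCAGGTGGGCC
AURKB, sgRNA 2: cgctccaaTGTCCAGCCCAC
AURKB, sgRNA 3: tgacgagcAGCGAACAGCCA
CDC20, sgRNA 1: gccaggaaCATCAGAAAGCC
CDC20, sgRNA 2: ttccctgcCAGACCGTATCC
KIF18A: cacgaactACTACTTTCATA
MAD2L1, sgRNA 1: tatcaaacTGCCATCTTTCC
MAD2L1, sgRNA 2: ttacaagaAACTTCCAACAG

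In the DMSO libraries the mitosis sgRNAs were detected less often than olfactory receptor sgRNAs in 3 of 3 libraries. DMSO 1 held 49 of the 202 (24.3%, 95% Wilson interval 18.9% to 30.6%), DMSO 2 held 43 (21.3%, 16.2% to 27.4%) and DMSO 3 held 58 (28.7%, 22.9% to 35.3%). Olfactory receptor sgRNAs were detected at 40.9%, 35.3% and 38.0% in the same libraries. The mean was 24.8% ± 3.74 (SD, n = 3) for mitosis genes, 38.1% ± 2.83 for olfactory receptors and 35.7% ± 3.02 for all protein-coding symbols. The 993 non-targeting sgRNAs were higher than any of these, at 56.9% ± 4.40. Within a library the mitosis share minus the olfactory share was -16.7, -14.0 and -9.27 percentage points, a mean of -13.3 ± 3.75, which was larger than the SD between libraries of either set. Against all protein-coding symbols the differences were -14.9, -12.2 and -5.80 points. DMSO 3 had the smallest total of the DMSO libraries and the highest share for mitosis genes. No p is given for a score over a chosen list.

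**Figure D1:**
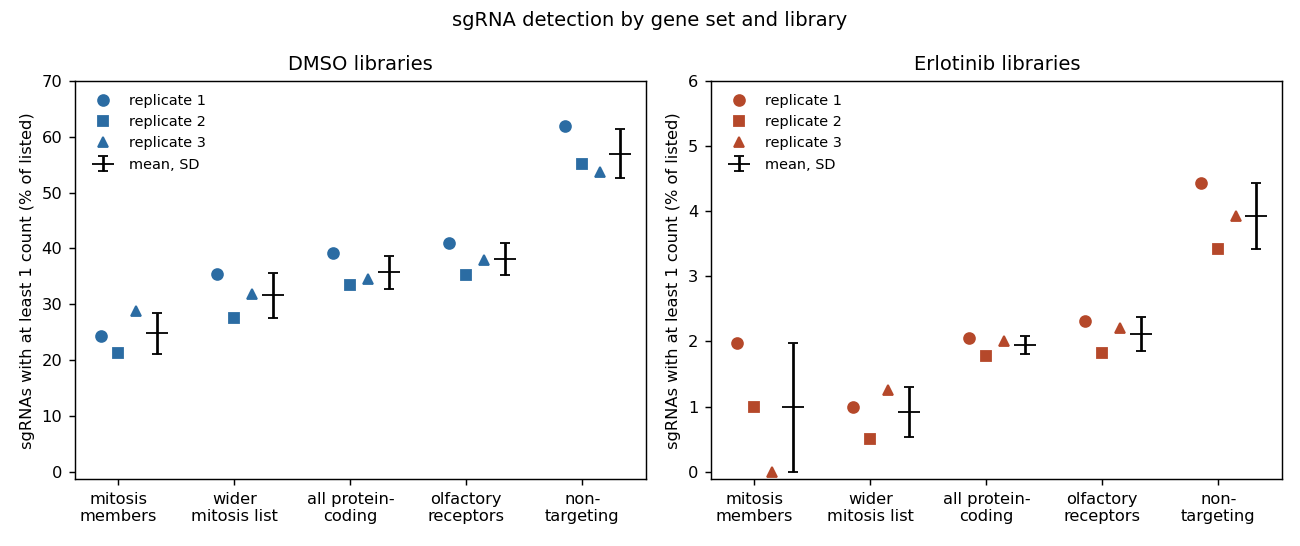
Share of listed sgRNAs with at least 1 count (y axis, percent) in the 3 DMSO libraries (left) and the 3 erlotinib libraries (right, on a smaller scale) for 5 sets of sgRNAs, with the mean and SD over libraries as bars. In DMSO the mitosis genes average 24.8%, below the 38.1% of olfactory receptors, and in erlotinib no set of genes passes 2.31%.

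Counts gave the same order. Mean CPM per listed mitosis sgRNA was 5.80 ± 1.07 (SD, n = 3 DMSO libraries), against 9.99 ± 0.131 for olfactory receptors, with a ratio between 0.484 and 0.697 by library. The sgRNAs that were detected had a median of 18.5 ± 1.02 CPM for mitosis genes and 20.9 ± 1.58 for olfactory receptors, a far smaller gap. The lower mean thus came with fewer sgRNAs detected more than with lower counts per detected sgRNA. Summed over the sgRNAs of a gene and averaged over the DMSO libraries, the median mitosis gene had 16.8 CPM (quartiles 8.53 and 33.5), against 51.2 (35.5 and 70.5) for the olfactory receptors and 45.4 (28.2 and 65.6) for all protein-coding symbols. The highest of the 55, CDC16 at 63.5 CPM, lay below the upper quartile of either comparison set.

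The list of sgRNAs itself was shorter for these genes. The methods give 6 designed sgRNAs per gene, and the table listed 3.67 per mitosis gene (61.2%), against 5.47 (91.2%) for olfactory receptors and 5.31 (88.6%) for all protein-coding symbols. All 6 were listed for 4 mitosis genes (BUB1, CENPF, DSN1 and ECT2; 7.27%) and for 60.5% of the olfactory receptors. At most 2 were listed for 11 mitosis genes (20%), compared with 1.34% of olfactory receptors and 1.99% of all protein-coding symbols. How an sgRNA came to be left out of the table was not tested, and no library from before treatment was analysed here, so loss of cells and composition of the transduced pool cannot be told apart. With 6 designed sgRNAs per gene as the denominator, an alternative added after the table was seen, mitosis detection in DMSO was 15.2% and the difference from olfactory receptors -19.6 points.

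The difference in detection was also seen among genes with like numbers of listed sgRNAs. The 24 mitosis genes with 1 to 3 listed had 22.6% ± 4.89 of them detected, against 33.3% ± 2.22 for olfactory receptors with 1 to 3. For 4 listed the shares were 29.2% ± 3.25 and 35.7% ± 3.15, for 5 they were 20% ± 6.30 and 39.1% ± 4.12, and for 6 they were 29.2% ± 4.17 and 37.9% ± 2.56. Mitosis sgRNAs were the lower set in each of the 4 classes.

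Base composition differed between the sets. Of the mitosis sgRNAs, 49 (24.3%) had 7 or fewer G or C among 20 bases, compared with 11.5% of olfactory sgRNAs. In that class 21.1% ± 8.25 of mitosis and 38.2% ± 4.69 of olfactory sgRNAs were detected in DMSO. With 8 to 12 G or C, which held 135 mitosis sgRNAs, the shares were 25.7% ± 1.86 and 38.1% ± 2.72, a difference of -12.5 ± 0.987 points. The difference was therefore nearly as large within the common range of base composition as over all sgRNAs. In 5 genes a pair of listed sgRNAs shared a run of at least 15 bases, so sgRNAs of 1 gene are not always separate probes of it.

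sgRNAs of mitosis genes also came back in fewer libraries. Of the 202, 97 (48.0%) were in none of the DMSO libraries, 66 in 1, 33 in 2 and 6 (2.97%) in all 3. For olfactory receptors 28.0% were in none and 8.70% in all 3. By gene, 5 of 55 (9.09%) had no count in any DMSO library, against 2 of 372 olfactory receptor genes (0.538%) and 190 of all protein-coding symbols (1.01%). A count in all 3 DMSO libraries was seen for 19 mitosis genes (34.5%), 80.4% of olfactory receptors and 72.4% of all protein-coding symbols.

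**Figure D2:**
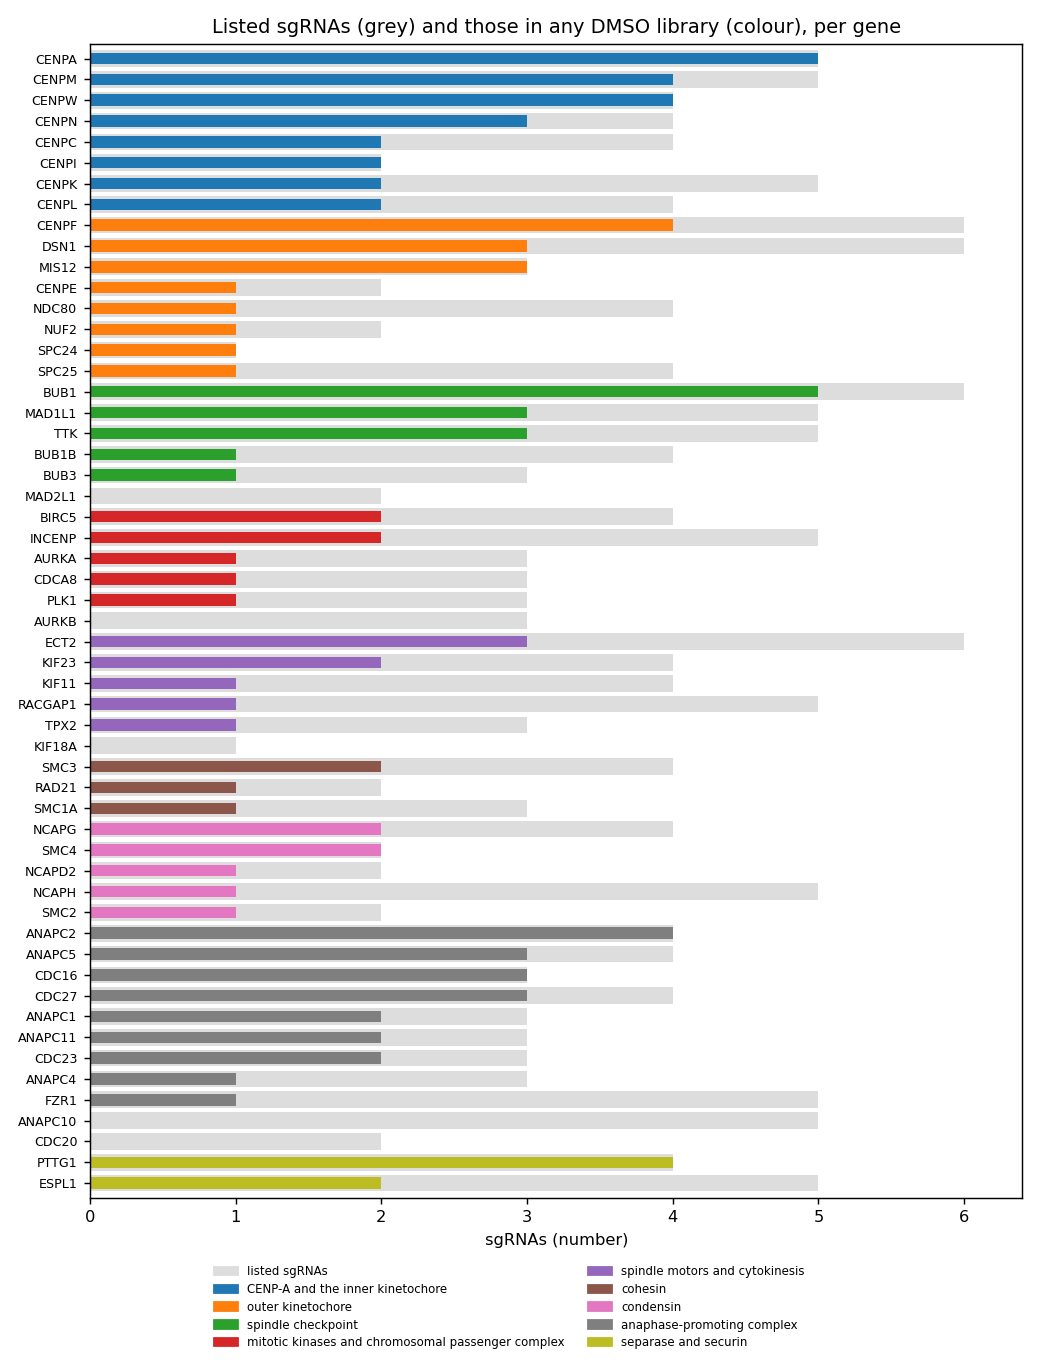
Number of listed sgRNAs (grey bars) and of those with a count in any DMSO library (coloured bars) for the 55 mitosis genes, coloured by complex. The 5 genes with no coloured bar are ANAPC10, AURKB, CDC20, KIF18A and MAD2L1.

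The 9 groups differed in how many sgRNAs were detected in DMSO. The mitotic kinases with the chromosomal passenger complex had the lowest mean share, 12.7% ± 5.50 (SD, n = 3 libraries) of 21 sgRNAs, and their differences from olfactory receptors were -21.9, -25.8 and -28.5 points. Cohesin had 14.8% ± 17.0 of 9, and spindle motors with cytokinesis 15.9% ± 6.64 of 23. Condensin had 22.2% ± 10.2 of 15 and the outer kinetochore 23.8% ± 2.06 of 28. The spindle checkpoint had 29.3% ± 10.1 of 25, the anaphase-promoting complex 29.9% ± 6.45 of 39, CENP-A and the inner kinetochore 31.3% ± 1.75 of 33, and separase with securin 33.3% ± 22.2 of 9. Neighbours in that order differed by less than the larger of their SDs. The kinases and the inner kinetochore, 19.0%, 9.52% and 9.52% against 30.3%, 30.3% and 33.3% in DMSO 1 to 3, did not overlap. The groups hold between 9 and 39 sgRNAs, so 1 sgRNA moves a share by several points in the smallest, and these orders are a description with no test.

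**Figure D3:**
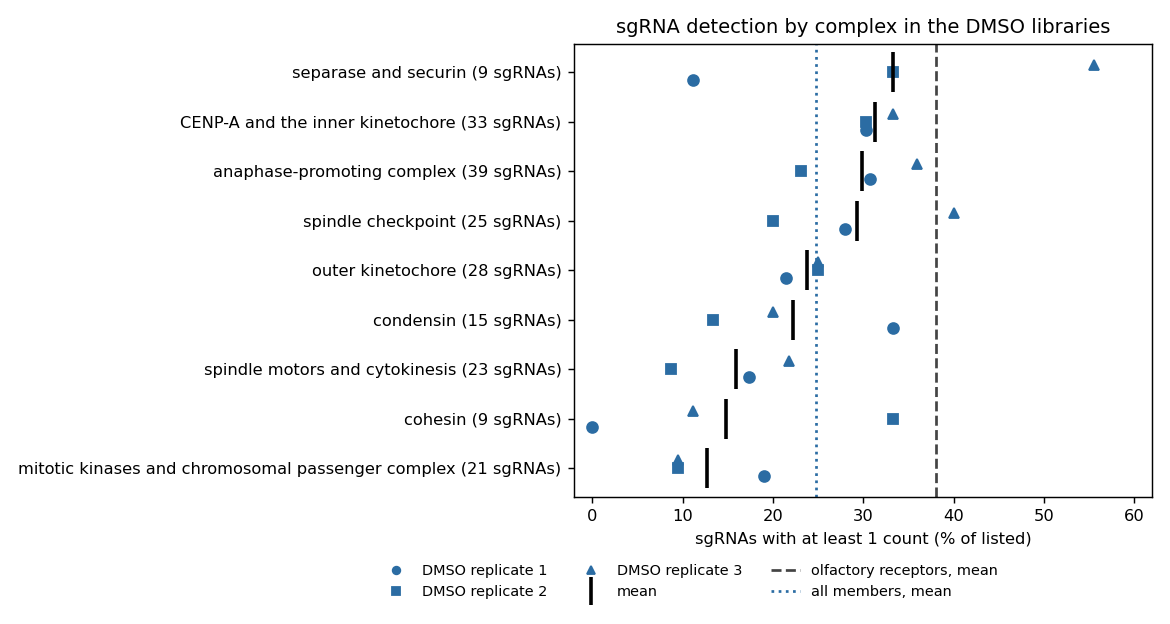
Detected share of the listed sgRNAs of each complex in DMSO replicates 1 to 3 (points, percent on the x axis), with the mean over libraries as a black bar. The dotted line is the mean of all mitosis sgRNAs (24.8%) and the dashed line that of olfactory receptors (38.1%), above the mean of every complex.

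Among the genes that found the kinetochore, detection over all listed sgRNAs had the smallest SD between libraries of the 9 groups. That was not kept among sgRNAs with 8 to 12 G or C, where the share was 31.6% ± 13.9. CENPA encodes the histone variant itself and had 1, 2 and 4 of its 5 sgRNAs detected in DMSO 1 to 3, with summed CPM of 22.8, 77.1 and 81.9. By share of sgRNAs the lowest of the group was CENPK, a subunit of the constitutive centromere network, with 1 of 5 sgRNAs in each library and 15.7, 17.2 and 62.9 CPM. Both were at 0 in all 3 erlotinib libraries, below every DMSO library. No gene of this group lacked a count in DMSO, and 24 of its 33 sgRNAs (72.7%) were in at least 1 DMSO library, close to the 72.0% of olfactory receptors.

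The outer kinetochore, which holds the microtubule, was split. MIS12, of the complex that joins the inner to the outer part, had 2, 1 and 2 of its 3 sgRNAs detected, with 58.6, 0.453 and 54.6 CPM. All 4 subunits of the NDC80 complex, the microtubule-binding rod, were seen in just 1 DMSO library each. NDC80 was at 0, 0 and 65.4 CPM and NUF2 at 0, 0 and 70.5. SPC24 was at 0, 23.1 and 0 CPM, from its only listed sgRNA, and SPC25 at 0, 33.1 and 0. None of the 28 sgRNAs of the outer kinetochore was seen under erlotinib, where only 5.34% of all protein-coding sgRNAs were in any library.

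In the spindle checkpoint the kinase BUB1 had the highest share of sgRNAs detected, 3, 1 and 4 of 6, with 48.3, 22.7 and 66.0 CPM. MAD2L1, the checkpoint's inhibitor of the anaphase-promoting complex, had no count for either of its 2 sgRNAs. TTK, the kinase that starts checkpoint signalling and a drug target, was at 42.2, 9.97 and 12.1 CPM in DMSO and at 0, 12.4 and 0 in erlotinib, so its groups overlapped. MAD1L1, which recruits MAD2 to kinetochores, was at 0, 28.1 and 77.5 CPM in DMSO and at 105, 0 and 0 in erlotinib.

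The mitotic kinases had the lowest mean share of the 9 groups, but not the lowest share in every library. In DMSO 1 cohesin (0%) and the spindle motors (17.4%) were below their 19.0%. In DMSO 2 the spindle motors (8.70%) were below their 9.52%. With 8 to 12 G or C the mean was 14.3% for cohesin and 15.4% for the kinases. AURKB, the kinase of the chromosomal passenger complex, had no count for any of 3 sgRNAs. PLK1, which acts at entry into mitosis and at the spindle poles, had 7 counts of 1 of its 3 sgRNAs in DMSO 2 and none elsewhere, or 0, 3.17 and 0 CPM. AURKA, the spindle-pole kinase, was at 23.2, 0 and 0 CPM, and CDCA8, which encodes borealin of the passenger complex, at 19.5, 0 and 0. BIRC5, or survivin, was at 19.9, 0 and 12.7 CPM. INCENP, the scaffold of the passenger complex, was the only gene of the group seen in all 3 DMSO libraries, at 20.4, 10.4 and 4.45 CPM. Of the group's 21 sgRNAs, 7 (33.3%) were in any DMSO library and none in erlotinib. Of all protein-coding sgRNAs, 69.0% were in any DMSO library and 5.34% in any erlotinib library.

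The motors and cytokinesis genes were nearly as low, with 8 of 23 sgRNAs (34.8%) in any DMSO library. KIF11, the motor that pushes spindle poles apart and a drug target, was at 0, 0 and 35.6 CPM. TPX2, the activator of Aurora A on the spindle, was at 0, 0 and 36.8 CPM and RACGAP1, of the central spindle, at 0, 0 and 9.53. These 3 genes were thus seen only in DMSO 3. KIF18A, which damps chromosome movement, had 1 listed sgRNA and no count. KIF23, the motor partner of RACGAP1, had the highest share of sgRNAs detected and was at 54.2, 9.97 and 52.1 CPM.

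The ring complexes that hold and compact chromatids were sparse. Each cohesin gene was seen in 1 DMSO library: SMC1A at 0, 25.4 and 0 CPM, SMC3 at 0, 28.1 and 0, and RAD21, which separase cuts, at 0, 0 and 5.08. Cohesin sgRNAs were therefore at 0 of 9 in DMSO 1, at 3 in DMSO 2 and at 1 in DMSO 3, and without DMSO 2 the mean share fell from 14.8% to 5.56%. In condensin SMC4 had 1, 0 and 1 of its 2 sgRNAs detected, a share tied with SMC2 as highest, at 37.8, 0 and 12.1 CPM. NCAPD2 was at 25.8, 0 and 0 CPM. NCAPH, the subunit that closes the condensin ring, was lowest by share of sgRNAs, with 16.7, 0 and 81.9 CPM in DMSO and 148, 0 and 0 in erlotinib. No gene of cohesin or condensin had a count in all 3 DMSO libraries.

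The anaphase-promoting complex spanned the whole range. ANAPC10, which helps bind substrates, had 5 listed sgRNAs and no count, and CDC20, the co-activator that the checkpoint restrains, had 2 and no count. The other co-activator, FZR1, was at 0, 0 and 28.6 CPM from 1 of 5 sgRNAs. At the other end CDC16, a scaffold subunit, had 2 of 3 sgRNAs in every DMSO library, with 33.5, 88.4 and 68.6 CPM. Its sgRNA ending TACAGGATTACT had 84, 130 and 73 counts. ANAPC2, the cullin subunit, ANAPC5 and CDC27 were the 3 genes of this group seen under erlotinib.

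Securin and separase differed from each other. PTTG1, securin, had 1, 3 and 3 of its 4 sgRNAs detected, with 12.2, 77.5 and 76.2 CPM. ESPL1, separase, was at 0, 0 and 73.0 CPM from 2 of 5 sgRNAs. Both were at 0 in erlotinib, where the DMSO libraries of PTTG1 all lay above and those of ESPL1 did not.

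**Figure D4:**
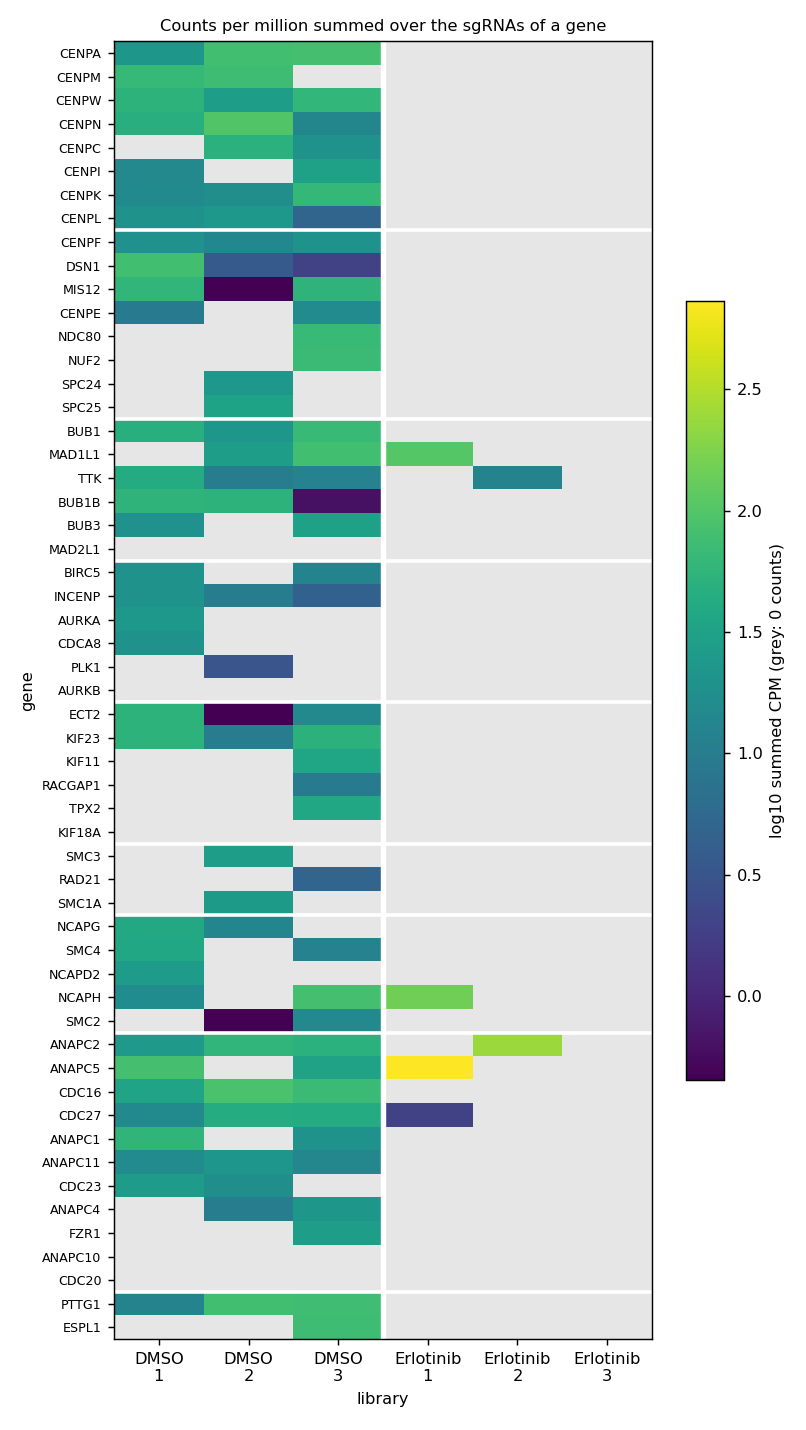
Summed CPM of each mitosis gene (rows, grouped by complex with white lines between groups) in each library (columns), coloured on a log10 scale, with 0 counts in grey. In erlotinib 49 of the 55 genes are grey in all 3 columns, and 6 genes have a coloured cell in 1 column each.

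Under erlotinib the mitosis sgRNAs were almost all at 0. The erlotinib libraries held 4, 2 and 0 of the 202, or 1.98% (95% Wilson interval 0.773% to 4.98%), 0.99% (0.272% to 3.54%) and 0%, where 0 of 202 allows a share of up to 1.49%. Olfactory receptor sgRNAs were at 2.31%, 1.82% and 2.21%. The means were 0.99% ± 0.99 for mitosis genes, 2.11% ± 0.260 for olfactory receptors and 1.95% ± 0.143 for all protein-coding symbols (SD, n = 3). Erlotinib detection as a percent of DMSO detection was 4.00% for mitosis genes and 5.55% for olfactory receptors, a ratio of 0.721 that ran from 0.378 without erlotinib 1 to 1.11 without erlotinib 3. With 6 sgRNAs behind it, a difference between the sets in the fall under erlotinib was not detectable.

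The 6 sgRNAs seen under erlotinib were each in 1 library. The ANAPC5 sgRNA ending GTCACATGATCT had 1480 counts in erlotinib 1, and 74, 0 and 26 in DMSO. The ANAPC2 sgRNA ending CGCCGCTACCTG had 431 counts in erlotinib 2, and 0, 95 and 0 in DMSO. MAD1L1 had 213 counts in erlotinib 1 and 0, 0 and 71 in DMSO, for the sgRNA ending TCGACCGCAACC. For each of these 3 sgRNAs the other 2 erlotinib libraries were at 0. NCAPH had 299 counts in erlotinib 1 for an sgRNA with no count in DMSO, ending TGTTTGTAAACT. TTK had 22 counts in erlotinib 2 for the sgRNA ending AGCTGTAGAACG, which had 100, 0 and 0 in DMSO. The CDC27 sgRNA ending ACCGCTCAGGAA had 4 counts in erlotinib 1 and none in DMSO, and it was not the CDC27 sgRNA seen in every DMSO library. Across genes, 6 of 55 mitosis genes (10.9%) had any erlotinib count, against 26.6% of olfactory receptors and 24.9% of all protein-coding symbols, which had more listed sgRNAs per gene.

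Counts summed per symbol went into a quasi-likelihood fit in edgeR over 20409 symbols with a count. At an adjusted p under 0.05, 69.2% of all symbols were lower in erlotinib, so a call of this kind was the common outcome. Of the 50 mitosis genes tested 24 were called lower and 0 higher (0 higher too at an unadjusted p under 0.05), a smaller share than the background. The other 5 had no count to test. Genes without an erlotinib count could not come out higher, and only 6 mitosis genes had such a count. The 24 include every one of the 19 genes with counts in all 3 DMSO libraries except TTK and ANAPC2. With the replicate number as a block, 0 of the 50 were called and 0 of all 20409 symbols.

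The strongest calls were genes with counts in every DMSO library and none in erlotinib. CENPW and CENPN were also among them, beside the 6 given with values here. The smallest edgeR quasi-likelihood adjusted p of all symbols was 0.00385 too, so that value does not set a gene apart. With erlotinib set at its floor of 1.36 CPM, the mean over libraries of 3 counts each, CDC16 at 63.5 ± 27.8 CPM (SD, n = 3) lay at least 46.8-fold above erlotinib (edgeR quasi-likelihood adjusted p = 0.00385). CENPA at 60.6 ± 32.8 CPM lay at least 44.6-fold above it (edgeR adjusted p = 0.00385). BUB1 at 45.7 ± 21.8 CPM lay at least 33.7-fold above it (edgeR adjusted p = 0.00385). These are bounds set by depth, not estimates of the fall. PTTG1 at 55.3 ± 37.3 CPM lay at least 40.7-fold above it (edgeR adjusted p = 0.00401), KIF23 at 38.7 ± 24.9 at least 28.5-fold (0.00503) and CENPK at 31.9 ± 26.8 at least 23.5-fold (0.00619). Calls for these 6 genes kept an edgeR adjusted p of at most 0.0413 when any 1 library was left out.

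Of the 24 calls, 11 held whichever library was left out and 13 were lost without some library. Calls over all symbols also fell without 1 library, from 14113 to between 11303 and 13693. MIS12, at 37.9 ± 32.5 CPM, had an edgeR adjusted p of 0.0182, and 0.0591 at its highest with 1 library left out, its call being lost without DMSO 1 or without DMSO 3. INCENP, at 11.8 ± 8.06 CPM, had an edgeR adjusted p of 0.0305 and up to 0.0907, and was called only without DMSO 3 among the 6 such fits. SMC4, at 16.6 ± 19.3 CPM, had an edgeR adjusted p of 0.0481 and up to 0.160, and was called only without DMSO 2. CDC27, with a few counts in erlotinib 1, had an edgeR adjusted p of 0.0168 and at most 0.0408 with 1 library left out, but lost its call with DESeq2 size factors in edgeR (adjusted p = 0.149) and in DESeq2 (adjusted p = 0.121).

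Over all symbols 69.2% were called lower in erlotinib, and no group of mitosis genes was tested against that share. By group, 7 of 8 tested genes of the inner kinetochore were called lower and 3 of 8 of the outer kinetochore. For the spindle checkpoint 3 of 5 were called, and for the anaphase-promoting complex 5 of 9. The count was 1 of 5 for the mitotic kinases (INCENP), 2 of 5 for the motors (KIF23 and ECT2), 0 of 3 for cohesin, 2 of 5 for condensin (NCAPG and SMC4) and 1 of 2 for separase and securin (PTTG1). Among the drug targets without a call, BIRC5 had an edgeR adjusted p of 0.0626, KIF11 0.107, AURKA 0.109, TTK 0.125 and PLK1 0.151. For the cohesin genes the edgeR adjusted p was 0.110 (SMC3), 0.113 (SMC1A) and 0.150 (RAD21).

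The genes with erlotinib counts had no call apart from CDC27. ANAPC5 had an edgeR adjusted p of 0.963, and 0.0451 without erlotinib 1. ANAPC2 had an edgeR adjusted p of 0.548, and 0.00515 without erlotinib 2. NCAPH was at 0.556 and MAD1L1 at 0.459 by the same edgeR adjustment. For ANAPC5 and ANAPC2 1 library thus decided the outcome, and for all 4 of these genes the fitted difference changed sign under other scalings.

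Setting genes at 0 in erlotinib to that library floor, the median log2 difference, erlotinib minus DMSO, was -3.58 over 49 mitosis genes, -4.92 over 370 olfactory receptor genes and -4.74 over 18631 protein-coding symbols. Genes without a DMSO count have no such difference, and no bound was set for PLK1, whose DMSO mean of 1.06 CPM lay below the floor. These 49 genes are therefore not the 49 genes at 0 in erlotinib. The mitosis genes started from lower DMSO levels, and the bound is smaller for a lower level. Fitted log2 differences are larger and are no bounds, because they depend on the prior count. Their medians were -10.19 over the mitosis genes and -11.28 over all symbols, and scaling by total counts moved them to -8.24 and -9.32.

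For single sgRNAs the quasi-likelihood test in edgeR called 0 of 74555 at an adjusted p under 0.05, with 23282 lower and 521 higher at an unadjusted p under 0.05. Of the 107 mitosis sgRNAs with a count, 25 were lower and 1 higher at that unadjusted threshold. An sgRNA without an erlotinib count could not come out higher, and only 6 mitosis sgRNAs had such a count. With the likelihood ratio test, which the study's methods use, 36.6% of all sgRNAs were lower at an unadjusted p under 0.05, and of the mitosis sgRNAs 30 of 107 were lower and 1 higher. The smallest edgeR adjusted p among them was 0.0998 (0.0755 by the likelihood ratio test), shared by several sgRNAs, those of CDC16 and BUB1B seen in every DMSO library among them.

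Counting sgRNAs detected per gene in place of reads, every DMSO library lay above every erlotinib library for 61.1% of protein-coding symbols. This held for 17 of 55 mitosis genes (30.9%) and 250 of 372 olfactory receptor genes (67.2%). The 17 were CENPA, CENPK, CENPL, CENPN, CENPW, MIS12, DSN1, CENPF, BUB1, BUB1B, INCENP, KIF23, ECT2, ANAPC2, ANAPC11, CDC16 and PTTG1. In these genes the lowest number of sgRNAs detected in a DMSO library was above the highest number in an erlotinib library. The measure ignores read counts: ANAPC2 is included, though its 243 CPM in erlotinib 2 lay above its 23.9, 58.9 and 50.2 CPM in DMSO. For ECT2 and MIS12 in DMSO 2 and BUB1B in DMSO 3, the only sgRNA detected had just 1 count. Of the other 38, 36 had at least 1 DMSO library at 0, which leaves no room below it, and fewer listed sgRNAs per gene also lower the chance of a gap.

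In the DMSO libraries a wider list of 78 other mitosis genes was nearer to the comparison sets. Its 400 sgRNAs were detected at 35.5%, 27.5% and 31.8% in DMSO, a mean of 31.6% ± 4.00, and 5.13 were listed per gene. The wider list was -5.43, -7.78 and -6.24 points from olfactory receptors, between them and the 55 genes in each library. Other kinetochore genes were at 30.7% ± 1.65, other checkpoint and spindle regulators at 32.5% ± 5.66, other cohesin and condensin genes at 30.6% ± 4.71 and other anaphase-promoting complex genes at 33.3% ± 4.02. Of the 78, 54 were called lower in erlotinib by the edgeR test on summed counts, a share close to the background, and 0 higher. Genes of the wider list without an erlotinib count could not be called higher. None of the 78 lacked a count in DMSO. In erlotinib the wider list was no nearer, with 0.917% ± 0.382 of its sgRNAs detected, 2.90% of its DMSO share, and 7 of its 78 genes (8.97%) with a count. The 55 genes and the wider list were compared as lists, with no test of the difference. Both lists were chosen with earlier results of these data known, so the contrast may come from how they were drawn.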

How the data were processed

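The authors amplified the integrated sgRNA sequences from genomic DNA and sequenced them as amplicons. They deposited raw read counts per sgRNA and library in 1 table of 107237 sgRNAs, some at 0 in every library. The counting program was not given in the sources used here, and no genome build is named, so no coordinates are printed. Each of the 6 columns was matched to a sample by its label. Replicate number goes with the forward index and treatment with the reverse index, so treatment and reverse index cannot be told apart.

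Symbols were matched exactly to the 56 genes; olfactory receptor symbols are OR followed by a digit. An sgRNA was detected at 1 count or more. CPM is counts per 1000000 counts of the library total. Counts per sgRNA, and counts summed per symbol without non-targeting sgRNAs, were tested in edgeR 4.0.16 (R 4.3.3) with the quasi-likelihood test, upper-quartile scaling at the 0.99 quantile as in the study's methods, and Benjamini-Hochberg adjustment over all features with a count (called at 0.05). The study's likelihood ratio test, DESeq2 1.42.0, other scalings, filterByExpr, a replicate block and leaving out each library were alternatives. The scripts were tested on simulated data.

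Genes named with values are, per complex, those with the lowest and highest share detected in DMSO, genes without a count in at least 2 DMSO libraries, genes with an erlotinib count, and 6 drug targets. The 5 never-detected genes tie as lowest, so all their sgRNAs are printed. The genes, complexes and wider list were chosen with earlier results of these data known.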

Additional observations from a re-analysis of the deposited data

How the results depend on the processing

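Detection of mitosis sgRNAs and its difference from olfactory receptors moved by less than the SD between libraries under stricter detection (5 or 10 counts), a common depth and a restricted base composition. Leaving out 1 library, DMSO detection ran from 22.8% to 26.5%, erlotinib detection from 0.495% to 1.49%, the difference from -15.3 to -11.6 points and the erlotinib ratio from 0.378 to 1.11, above 1 without erlotinib 3. The sole setting that moved DMSO detection and the difference was the designed number of sgRNAs as denominator, chosen after seeing the data (15.2% and -19.6 points). Restriction to sgRNAs listed for 1 symbol was not run, because no sgRNA was listed for more.

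The 24 mitosis genes called lower on summed counts became 19 with TMM, 19 with DESeq2 size factors and 18 with total counts. They became 29 with the likelihood ratio test and 28 with DESeq2. Over all 20409 symbols, 14113 became 13448, 13616, 12474, 15446 and 14954 in that order. With filterByExpr 12 of the 17 mitosis genes left to test were called, and 10262 of 14214 symbols. Without 1 library 13 to 20 mitosis genes were called, 13 without DMSO 1. Over all symbols these fits called 11303 to 13693, 11303 without DMSO 1. With a replicate block, 0 mitosis genes were called (2 at an unadjusted p under 0.05), and over all symbols 0 against 14113 without it (4340 unadjusted). Deviations of same-numbered DMSO and erlotinib libraries had correlations of 0.000756, -0.00331 and 0.00407. Since an erlotinib library held only 1.78% to 2.07% of the sgRNAs, this check could not show whether the numbers pair the samples.

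The 0 mitosis sgRNAs called lower became 4 with filterByExpr, 2 with the DESeq2 Wald test and 0 to 17 without 1 library (17 without DMSO 2, 13 without DMSO 3). Over all sgRNAs, 0 became 5714, 2605, 12186 and 14276 in that order, and with the block it stayed 0. The genes counted in erlotinib changed sign, with no call where the sign was positive (DESeq2 gave no adjusted p for ANAPC5). The fitted log2 difference of ANAPC5 (-0.18) became 1.48 with TMM, 4.19 with DESeq2 size factors, 2.69 with total counts and 4.39 with DESeq2, and ran from -11.45 to 1.22 without 1 library (1.22 without DMSO 1, 0.40 without erlotinib 2 or 3). ANAPC2 (-1.84) became 0.87 with total counts. MAD1L1 (-2.70) became 1.59, 0.022 and 1.79, and NCAPH (-2.12) became 2.18, 0.61 and 2.39, with DESeq2 size factors, total counts and DESeq2. Among the other values for single genes and complexes, 394 kept direction and, where an adjusted p was given, their side of the threshold, 27 lost a call, 9 gained one and 8 moved.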
